A study of Mus musculus with 12 samples.

Results

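A set of 9 genes that mark the CD11c-positive, T-bet-positive state of B cells was read in a table of mouse splenic B cells: Itgax, Itgam, Tbx21, Fcrl5, Zeb2, Cxcr3, Fas, Zbtb32 and Nt5e. They were chosen by symbol as known markers, with earlier results of these data known, and are 9 of the 23282 rows of the deposited count table. All 9 passed the filter on low counts that left 11857 genes for testing. The 12 libraries fall into 4 groups of 3, each from splenic B cells of mice labelled wild-type C57BL/6, 7 weeks old. The control group is labelled as untreated, with no vehicle named. The ODN group received 50 µg of the class B CpG-ODN 1826 by injection into the peritoneum on days 1 and 3. The IM156 group received 30 mg/kg of IM156, an inhibitor of oxidative phosphorylation, by the same route on days 0 and 2. The ODN+IM156 group received both on those days, and spleens were collected on day 4. The series' own description calls the mice lupus-prone, whereas the labels give no lupus strain or allele, so that the model is an ODN injection of a common strain as far as the labels go. The way in which B cells were isolated, the sex of the mice and the number of mice behind a library are not given in the sources used here, so that p-values measure only the spread between these samples, which may be technical.

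B cells of this state, also called age-associated or atypical memory B cells, carry the integrin CD11c (Itgax) on their surface and depend in large part on the transcription factor T-bet (Tbx21). They accumulate with age, in chronic infection and in lupus, and signals through the endosomal nucleic acid receptors TLR7 and TLR9 together with interferon-γ or interleukin-21 are known to induce them. CpG-ODN is a synthetic DNA that activates TLR9. The design asks how the ODN moved these markers after 4 days in the animal, and whether IM156 given with it altered that response.

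The genes that give the state its name lie on chromosomes 7 and 11. Itgax lies on chromosome 7 at 128129547 to 128150657 (plus strand) and Tbx21 on chromosome 11 at 97098071 to 97115331 (minus strand), in GRCm38 with the GENCODE annotation. The stretches directly upstream of their starts are shown because both genes rose under ODN. They are written on the strand of the gene, from RefSeq on GRCm38.p6, at chr7:128129300-128129546 for Itgax and chr11:97115332-97115581 for Tbx21.
Itgax: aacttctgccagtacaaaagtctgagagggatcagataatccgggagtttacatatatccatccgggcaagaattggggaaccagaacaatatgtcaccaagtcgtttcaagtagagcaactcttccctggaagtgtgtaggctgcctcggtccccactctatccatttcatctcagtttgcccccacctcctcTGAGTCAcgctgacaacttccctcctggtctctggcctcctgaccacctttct
Tbx21: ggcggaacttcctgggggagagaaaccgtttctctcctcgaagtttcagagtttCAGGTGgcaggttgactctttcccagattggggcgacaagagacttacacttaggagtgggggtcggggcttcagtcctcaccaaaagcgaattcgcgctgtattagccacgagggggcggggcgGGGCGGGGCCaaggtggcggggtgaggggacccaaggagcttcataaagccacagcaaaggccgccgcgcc
Capitals mark matches to the motifs searched on both strands. The Itgax stretch holds 1 match to the AP-1 motif TGANTCA, 56 bases before the RefSeq start; 6.75% of 32851 RefSeq windows of 250 bases upstream of a start hold this motif. The Tbx21 stretch holds 1 match to the E-box CAGGTG at 196 bases before the start, a motif found in 17.2% of windows, and 1 match to a loose kappa-B motif at 71 bases, which 45.8% of windows hold and which here lies in a run rich in G and C. The T-box motif TCACACC, the element that T-bet itself reads, is in 3.33% of windows and in 0 of the 13 windows of the 9 genes. The AP-1 motif is also in windows of Fcrl5 (11 bases before its start), Zeb2 (132 and 189 bases) and Fas (211 bases), so that 4 of the 9 genes hold it, among them Zeb2 and Fas, which were not called. These matches describe letters in short windows and were not tied to binding.

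The other members lie at chr7:128062640-128118491 (Itgam, plus strand), chr3:87435773-87500678 (Fcrl5, plus), chr2:44983632-45117395 (Zeb2, minus), chrX:101731535-101734269 (Cxcr3, minus), chr19:34290666-34327772 (Fas, plus), chr7:30589681-30598909 (Zbtb32, minus) and chr9:88327197-88372092 (Nt5e, plus). Itgam shares its strand with the overlapping model Gm49368, and Zeb2 overlaps the antisense RNA Zeb2os. The strand rule of the counting is not given in the sources used here, so that reads of Zeb2 and Zeb2os cannot be told apart.

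Libraries held between 9650775 and 11532525 counts, and levels are given in CPM, counts relative to a library total that was scaled between libraries. Markers of B cells were high and even: the sum over a list of 14 lay between 9470 and 10200 CPM in the 12 libraries. Of the defining T-cell markers, Cd3e had at most 4 counts in a library, Cd4 at most 12 and Cd8a 20 to 136. The libraries of the ODN group stood apart from the rest, each in a different way. ODN replicate 1 had the marginal zone receptor Cr2 at 1220 CPM, against 2220 to 2880 CPM in the other 11 libraries, and the neutrophil markers S100a8 and S100a9 at 36.3 and 48.2 CPM. ODN replicate 2 had 1.46% of its counts on the ribosomal RNA row Rn45s, against 4.78 to 9.63% elsewhere. ODN replicate 3 had 1 count of Xist, the transcript that silences an X chromosome in females, where the other 11 libraries had 924 to 1320 CPM. The main results of ODN against control are therefore also given without these libraries.

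ODN raised 4 of the 9 markers over control, Itgax, Tbx21, Fcrl5 and Cxcr3, and lowered none. The test was edgeR's quasi-likelihood test fitted to all 12 libraries, with Benjamini-Hochberg adjustment over 11857 genes, and genes with an adjusted p below 0.05 were called. In this comparison 10.6% of all genes tested were called, 870 higher and 385 lower. The median log2 fold change of the 9 was 0.81, with 7 above 0, beside a median of -0.0049 over all genes tested. In a bulk sample, fewer cells of a type and less RNA per cell cannot be told apart, so that a higher level may stand for more marker-positive cells or for more transcript in each.

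**Figure D1:**
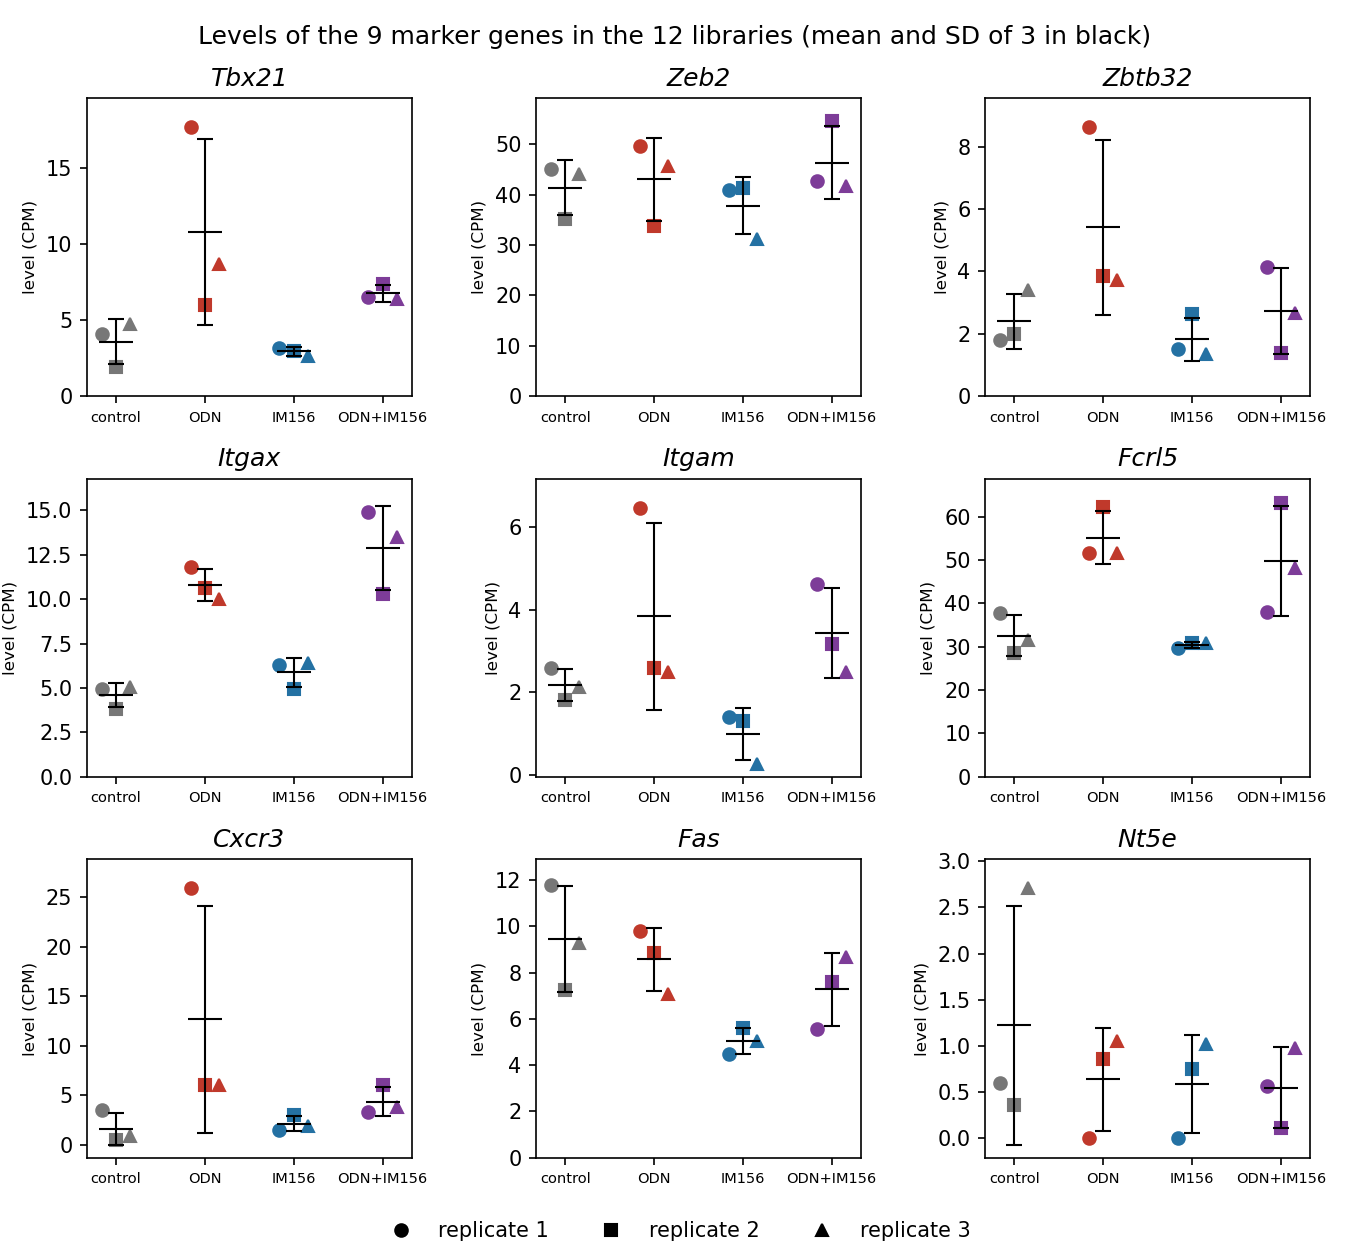
Levels of the 9 genes (vertical axes, CPM) in each library by group, with replicates 1, 2 and 3 as circles, squares and triangles and the mean and SD of 3 in black. Itgax and Fcrl5 in both ODN-treated groups sit above every control and IM156 library, whereas ODN replicate 1 lies far above its group for Tbx21, Cxcr3, Itgam and Zbtb32.

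Among the transcription factors, Tbx21 rose and Zeb2 was not called in any comparison. Tbx21 encodes T-bet, which drives the type 1 programme and switching to IgG2c in B cells. Its level was 4.07, 1.91 and 4.74 CPM in the control libraries, 17.7, 6.01 and 8.71 CPM under ODN, 3.19, 2.99 and 2.64 CPM under IM156, and 6.51, 7.4 and 6.38 CPM under both agents. Every library that received ODN lay above every library that did not. The means were 3.57 ± 1.48 CPM in control and 10.8 ± 6.12 CPM under ODN (SD, n = 3). The log2 fold change of ODN against control was 1.59 (SE 0.36), with an edgeR adjusted p of 0.0064. Without ODN replicate 1, the library with 17.7 CPM, it was 1.04 with an adjusted p of 0.0625 and no longer called; without ODN replicate 2 it was 1.88 and without replicate 3 1.71, both called.

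Under IM156 the same ODN injection gave Tbx21 a log2 fold change of 1.20 (95% interval 0.43 to 1.97), with an edgeR adjusted p of 0.099, which missed the threshold although the 3 ODN+IM156 libraries and the 3 IM156 libraries did not overlap. Fitted on the libraries of those groups alone, the value was 1.20 and the adjusted p 0.00642. Without ODN replicate 1, whose spread enters the shared estimate, the adjusted p was 0.0238. Averaged over both IM156 levels, ODN changed Tbx21 by 1.39 (SE 0.26, edgeR adjusted p = 0.00103), a call kept in all 18 alternatives.

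Zeb2, a zinc-finger repressor that is needed for these B cells to form, had 45.1, 35.1 and 44.1 CPM in control, 49.6, 33.7 and 45.8 CPM under ODN, 41, 41.3 and 31.3 CPM under IM156, and 42.7, 54.7 and 41.7 CPM under both. The groups overlapped, apart from IM156 and ODN+IM156. The log2 fold change of ODN against control was 0.05, and its 95% interval of -0.27 to 0.38 leaves no room for a rise as large as that of Itgax. With 367 to 518 counts in a library, depth did not limit this gene.

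Zbtb32 encodes a repressor that restrains the recall of memory B cells. Its level was 1.79, 2 and 3.39 CPM in control, 8.64, 3.86 and 3.73 CPM under ODN, 1.5, 2.62 and 1.36 CPM under IM156, and 4.15, 1.37 and 2.66 CPM under both. The ODN libraries lay above all control and IM156 libraries, and ODN replicate 1 was again the highest. The log2 fold change of ODN against control was 1.17 (SE 0.44), with an edgeR adjusted p of 0.102; it was 0.66 without ODN replicate 1 and 1.36 and 1.37 without replicates 2 and 3, and was called (adjusted p = 0.0322) where no filter on low counts was applied.

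Among the integrins, Itgax showed the steadiest rise of the set and Itgam a less certain one. Itgax encodes CD11c, the chain that pairs with the β2 integrin Itgb2 and is also a standard marker of dendritic cells. Its level was 4.97, 3.81 and 5.03 CPM in control and 11.8, 10.6 and 10 CPM under ODN. It was 6.28, 4.95 and 6.4 CPM under IM156 and 14.9, 10.3 and 13.5 CPM under both. The ODN-treated libraries all lay at or above 10 CPM and the others at or below 6.4 CPM. The mean rose from 4.61 ± 0.69 CPM to 10.8 ± 0.88 CPM (SD, n = 3), a log2 fold change of 1.23 (SE 0.22, edgeR adjusted p = 0.00117), and the call held in 19 of 19 alternatives, with values between 1.11 and 1.30. In the order of means, control and IM156 did not differ beyond their spread, nor did ODN and ODN+IM156.

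With IM156 present in both groups, ODN raised Itgax by 1.13 on the log2 scale (SE 0.21, edgeR adjusted p = 0.00525), and the adjusted p rose to 0.0535 only without IM156 replicate 2. ODN+IM156 exceeded control by 1.49 (edgeR adjusted p = 0.00044). Its partner chain Itgb2 was not called, at 75.4 CPM in control and 77.3 CPM under ODN as means.

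Itgam encodes CD11b, the other β2-pairing integrin of this state, shared with myeloid and NK cells. Its level was 2.58, 1.81 and 2.13 CPM in control, 6.46, 2.58 and 2.49 CPM under ODN, 1.4, 1.31 and 0.26 CPM under IM156, and 4.62, 3.17 and 2.48 CPM under both. ODN and control overlapped, and 1 library, ODN replicate 1, carried the higher mean. ODN against control gave 0.81 (95% interval -0.21 to 1.82), which fell to 0.22 without that library. Under IM156 the difference was 1.80 (SE 0.53, edgeR adjusted p = 0.0796), resting on IM156 libraries of 14, 14 and 3 counts; DESeq2 called it. Only the average over both IM156 levels was called, at 1.31 (edgeR adjusted p = 0.0208), and that call was lost without control replicate 2 (1.25, adjusted p = 0.053), ODN replicate 1 (1.01, 0.0686) or ODN+IM156 replicate 1 (1.17, 0.0601).

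Among the surface receptors, Fcrl5 and Cxcr3 rose and Fas was not called. Fcrl5 encodes an Fc receptor-like protein of B cells that marks atypical memory cells and, in the mouse, also marginal zone and B1 cells. Its level was 37.7, 28.5 and 31.5 CPM in control, 51.6, 62.3 and 51.6 CPM under ODN, 29.6, 30.8 and 30.8 CPM under IM156, and 38.1, 63.1 and 48.1 CPM under both. The lowest ODN-treated library, at 38.1 CPM, was just above the highest control. ODN against control gave 0.76 (SE 0.15, edgeR adjusted p = 0.00262), called in 19 of 19 alternatives. Under IM156 it was 0.71 (edgeR adjusted p = 0.0157), a call lost in 5 of 19 alternatives, those without IM156 replicate 1, 2 or 3 or without ODN+IM156 replicate 2 or 3; values over the 19 lay between 0.51 and 0.87 and adjusted p up to 0.113. ODN+IM156 against control gave 0.61 (edgeR adjusted p = 0.0478), a call kept in 10 of 19 alternatives, with values between 0.41 and 0.77 and adjusted p up to 0.292. It was lost with library totals alone, with the replicate block, and without control replicate 2 or 3, any IM156 library, or ODN+IM156 replicate 2 or 3.

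Cxcr3 encodes the receptor for the interferon-induced chemokines Cxcl9 and Cxcl10 and is a known target of T-bet. Its level was 3.48, 0.54 and 0.87 CPM in control, 25.9, 6.1 and 6.03 CPM under ODN, 1.5, 2.99 and 1.96 CPM under IM156, and 3.3, 6.02 and 3.81 CPM under both. All ODN libraries lay above all others, but replicates 2 and 3 only just above the 6.02 CPM of an ODN+IM156 library. The log2 fold change of ODN against control was 2.96 (SE 0.59), with an edgeR adjusted p of 0.00272. It was called in 19 of 19 alternatives, but its size depended on single libraries: 1.90 without ODN replicate 1, 3.30 and 3.29 without ODN replicates 2 and 3, and 4.14 without control replicate 1. Under IM156 the ODN response was 1.01 (95% interval -0.22 to 2.25), with an edgeR adjusted p of 0.474.

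Fas, the death receptor CD95, had 11.8, 7.26 and 9.29 CPM in control, 9.79, 8.84 and 7.08 CPM under ODN, 4.49, 5.61 and 5.03 CPM under IM156, and 5.57, 7.61 and 8.68 CPM under both. Control and ODN overlapped, with a log2 difference of -0.14 (95% interval -0.64 to 0.36). The 3 IM156 libraries lay below every control and ODN library. IM156 against control gave -0.90 (95% interval -1.42 to -0.39), with an unadjusted p of 0.00159 from edgeR but an adjusted p of 0.999 over all genes, so that it was not called.

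Nt5e encodes CD73, the surface enzyme that makes adenosine and marks a part of memory B cells. It was near the detection limit, with 6, 4 and 28 counts in control, 0, 10 and 11 under ODN, 0, 8 and 12 under IM156 and 6, 1 and 11 under both. A count of 0 allows up to 0.312 CPM in ODN replicate 1 and 0.299 CPM in IM156 replicate 1. No difference was detectable at this depth; ODN against control had a 95% interval of -2.88 to 1.09 on the log2 scale.

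**Figure D2:**
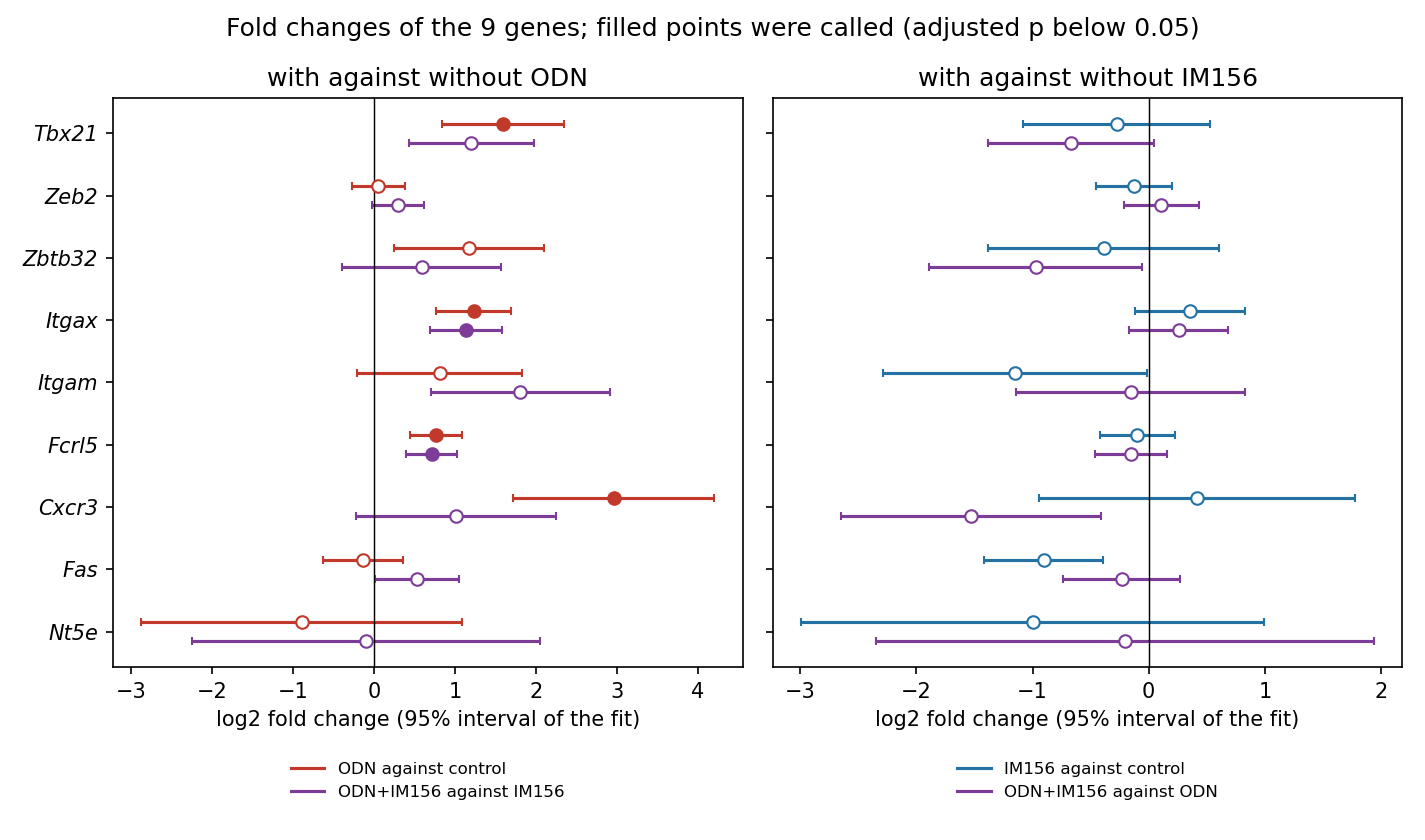
Log2 fold changes with 95% intervals (horizontal axes) of the 9 genes for ODN with and without IM156 on the left and for IM156 with and without ODN on the right, with filled points where called. Itgax and Fcrl5 have filled points for ODN at both IM156 levels, at 1.23 and 1.13 and at 0.76 and 0.71, and no point on the right is filled.

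IM156 moved none of the 9 past the threshold, given alone or with ODN. For IM156 against control, 0 of 9 were called (0% of all genes), 2 had an unadjusted p below 0.05 (Itgam and Fas, both lower), and DESeq2 called 0 of the 9 and 2 of all genes; edgeR found 439 genes at an unadjusted p below 0.05. For ODN+IM156 against ODN, 0 of 9 were called (0.0675% of all genes), 2 had an unadjusted p below 0.05, Cxcr3 and Zbtb32, and DESeq2 called 0. Those 2 are 22.2% of the 9, beside 16.2% of all genes at an unadjusted p below 0.05. The 9 had 7 values below 0 in this comparison and a median of -0.20, beside -0.0083 over all genes.

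The largest negative differences of ODN+IM156 against ODN were in members for which ODN replicate 1 was far above its group. Cxcr3 differed by -1.53 (95% interval -2.65 to -0.41), with an unadjusted p of 0.00977 and an edgeR adjusted p of 0.157. The adjusted p of Cxcr3 was 6.77e-05 with no filter on low counts and 0.035 without ODN replicate 3, whereas without ODN replicate 1 the difference was -0.47 with an adjusted p of 0.734. Zbtb32 differed by -0.97 (edgeR adjusted p = 0.278) and by -0.47 without that library. Tbx21 differed by -0.67 (95% interval -1.38 to 0.04, edgeR adjusted p = 0.345) and by -0.12 without it.

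Itgax and Fcrl5 had narrower intervals. ODN+IM156 against ODN gave 0.26 (95% interval -0.17 to 0.69) for Itgax, so that a reduction by IM156 of more than 0.17 on the log2 scale lay outside the interval. For Fcrl5 the value was -0.15 (-0.46 to 0.16). These intervals bound the difference and do not show that IM156 has no action on either gene.

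The test of whether IM156 changed the ODN response is the interaction, the ODN effect with IM156 minus that without. It called 0 of 9 members (0% of all genes; 1453 genes at an unadjusted p below 0.05; DESeq2 called 0 of the 9 and 165 of all genes). Cxcr3 had the only unadjusted p below 0.05 among the 9, at -1.95 (95% interval -3.70 to -0.19, edgeR adjusted p = 0.352), and was called with no filter on low counts (adjusted p = 0.00838). Without ODN replicate 1 it was -0.88 (adjusted p = 0.658). The interaction was -0.10 for Itgax (-0.73 to 0.54), -0.05 for Fcrl5 (-0.50 to 0.40) and -0.39 for Tbx21 (-1.47 to 0.69).

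Counted by comparison, ODN+IM156 against IM156 called 2 of the 9, Itgax and Fcrl5, beside 2.47% of all genes. ODN+IM156 against control called the same 2, beside 1.59% of all genes, and shares its ODN+IM156 libraries with ODN+IM156 against IM156 and its control libraries with ODN against control. Averaged over both IM156 levels, ODN called 5 of the 9, all higher, beside 12.2% of all genes: Itgax (1.18), Itgam (1.31), Tbx21 (1.39), Fcrl5 (0.74) and Cxcr3 (1.99). Zbtb32 (0.88, edgeR adjusted p = 0.0839), Zeb2 (0.17), Fas (0.19) and Nt5e (-0.50) were not called. Zbtb32 was called for this average with no filter on low counts (adjusted p = 0.0228), without ODN replicate 3 (0.0488) and without ODN+IM156 replicate 2 (0.0485).

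**Figure D3:**
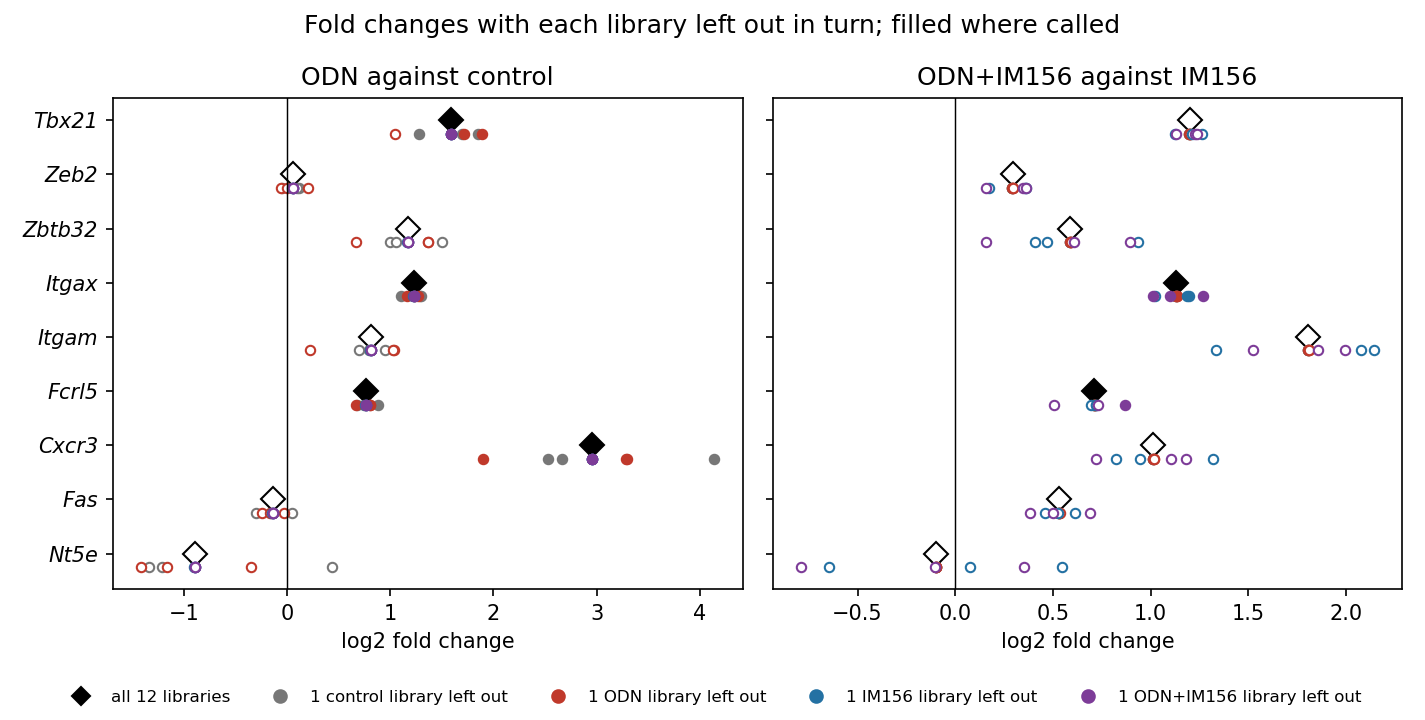
Log2 fold change of each gene (horizontal axes) with all 12 libraries (diamonds) and with 1 library left out (small circles, coloured by its group), filled where called, for ODN against control and ODN+IM156 against IM156. Without ODN replicate 1, Tbx21 moves from 1.59 to 1.04 and its circle is open, while the circles of Itgax and Fcrl5 in the left panel stay filled.

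Several of these genes are also expressed by other cells of the spleen, and markers of those cells moved with the treatment. Itgax is a marker of dendritic cells. The summed level of 13 dendritic cell markers was 84 to 98.2 CPM in control, 150 to 171 CPM under ODN, 72.8 to 89.7 CPM under IM156 and 149 to 188 CPM under both. The ODN-treated groups lay above the others, as for Itgax. Ffar2 alone was at 38.2 to 48.2 CPM in control and 92.5 to 112 CPM under ODN. Without Ffar2, the other 12 summed to 45.3 to 57.9 CPM in control and 57.8 to 60.6 CPM under ODN. These ranges overlap only between 57.8 and 57.9 CPM, with means of 51.1 CPM in control and 59.3 CPM under ODN. The same 12 summed to 31.3 to 50.6 CPM under IM156 and 58.3 to 91.2 CPM under both. All ODN+IM156 libraries thus lay above every control and IM156 library. Of 11 dendritic markers that could be tested, ODN against control called 1 higher, Ffar2, and none lower. That is 9.09% of those tested beside 10.6% of all genes. ODN+IM156 against IM156 called 2 of the 11 higher and 0 lower, 18.2% beside 2.47% of all genes. For ODN+IM156 against control, 3 were called higher and 0 lower, 27.3% beside 1.59% of all genes. The defining marker Zbtb46 had 5 to 10 counts in a control library and 7 to 18 in an ODN library, Flt3 11.1 to 21 CPM and 15.5 to 18.3 CPM. Xcr1 had 3.78 to 6.08 CPM in control, 5.42 to 11.5 CPM under ODN and 8.88 to 29.8 CPM under both. None of the 13 was at 0 counts throughout the control, ODN or ODN+IM156 group, and 1 was in the IM156 group. The part of dendritic cells in the Itgax result was not tested.

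Itgam is shared with monocytes, macrophages and neutrophils. The sum of 16 monocyte and macrophage markers was 46.9 to 87.3 CPM in control and 56.2 to 105 CPM under ODN, overlapping, and 48.4 to 89.3 CPM under IM156 and 80.3 to 136 CPM under both. Of 13 that could be tested, ODN against control called 3 higher and 0 lower, 23.1% beside 10.6% of all genes. The sum of 12 neutrophil markers was 6 to 9.54 CPM in control and 24.5 to 89.9 CPM under ODN, with the highest value in ODN replicate 1, which also had the highest Itgam. It was 2.99 to 6.91 CPM under IM156 and 20.2 to 26.1 CPM under both. S100a8 and S100a9 made up most of it, while the granule gene Ngp had at most 5 counts and the receptor Csf3r at most 4 counts in any library. Only 3 neutrophil markers could be tested, and ODN against control called 2 higher and 0 lower, 66.7% beside 10.6% of all genes. The part of these cells in the Itgam values was not tested.

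Tbx21 and Cxcr3 are expressed by NK and activated T cells. The sum of 12 NK markers was 6.29 to 7.26 CPM in control, 20.2 to 27.9 CPM under ODN, 5.63 to 9.72 CPM under IM156 and 11.7 to 17.6 CPM under both. Its means have the order of the Cxcr3 means. The Tbx21 means differ in order only for IM156 (2.94 CPM) and control (3.57 CPM), where the mean NK sums were 7.74 and 6.74 CPM. The control and IM156 libraries overlapped in Tbx21 and in the NK sum. In Tbx21 as in the NK sum, every ODN-treated library lay above every other library. Of the 12 NK markers, 3 were at 0 counts throughout the control group and none throughout the ODN group. Only 5 could be tested, and ODN against control called 2 higher and 0 lower, 40% beside 10.6% of all genes. Ncr1, the defining receptor, had 0 counts in all control and IM156 libraries, 5, 11 and 10 counts under ODN and 7, 6 and 3 under both. Gzma had 37, 105 and 90 counts under ODN. Within the ODN group, replicate 1 had the highest Tbx21 and Cxcr3 and the lowest NK sum, 20.2 CPM. The sum of 12 T-cell markers overlapped between control (281 to 342 CPM) and ODN (313 to 363 CPM). Of 7 T-cell markers that could be tested, ODN against control called 0. The part of NK cells in the Tbx21 and Cxcr3 results was not tested.

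Fcrl5 and Zbtb32 also mark other B-cell types. The sum of 9 B1 cell markers was 87.5 to 99.4 CPM in control and 98.9 to 152 CPM under ODN, highest in replicate 1, and 72.2 to 114 CPM under IM156 and 97.8 to 119 CPM under both. That of 12 marginal zone markers was 4230 to 4760 CPM in control and 4060 to 5090 CPM under ODN, overlapping, and 4420 to 4550 CPM and 4210 to 4760 CPM in the IM156 and ODN+IM156 groups. That of 10 plasma cell markers was 763 to 904 CPM in control, 843 to 1000 CPM under ODN, 842 to 914 CPM under IM156 and 781 to 854 CPM under both. Platelet and megakaryocyte markers, 10 in all, summed to 46.7 to 68.7 CPM in control, 136 to 229 CPM under ODN, 62.9 to 67 CPM under IM156 and 130 to 180 CPM under both. ODN against control called 7 of 9 platelet and megakaryocyte markers tested (77.8%) and 2 of 8 B1 markers (25%), all higher, beside 10.6% of all genes. The B1 count was 0 without ODN replicate 1. Of 12 marginal zone markers 1 was called higher and 2 lower (25%), and of 9 plasma cell markers 0 were called. The part of these cells in the values of the 9 genes was not tested.

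**Figure D4:**
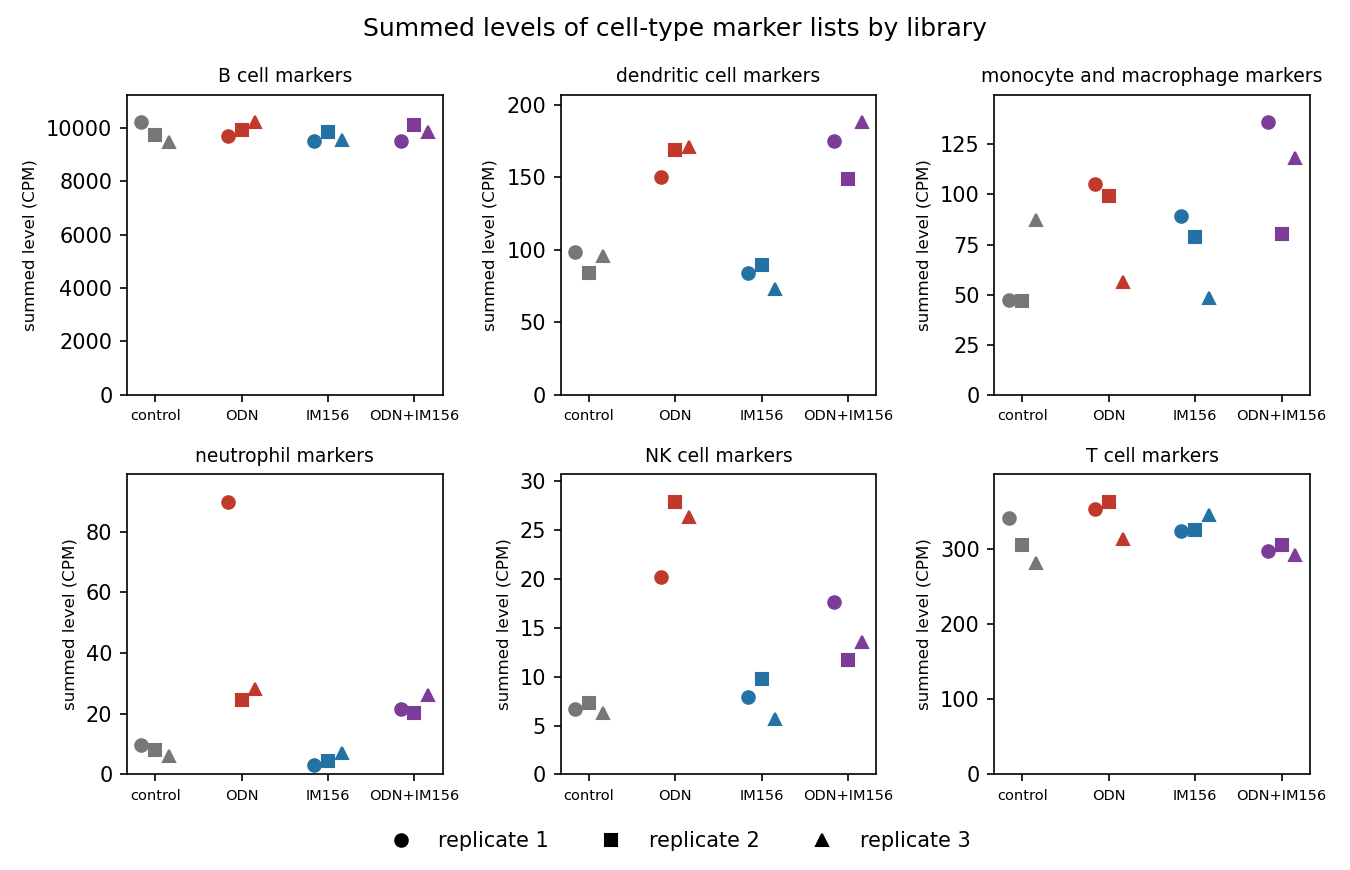
Summed level (vertical axes, CPM) of the marker lists of 6 cell types in each library, with replicates 1, 2 and 3 as circles, squares and triangles. B-cell sums are level at 9470 to 10200 CPM, dendritic and NK sums are higher in every ODN-treated library than in every other, and the neutrophil sum of ODN replicate 1 stands at 89.9 CPM.

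Beyond the 9 markers, 28 further genes known to be high in this state were measured and tested. ODN raised 6 of them and lowered 2 against control, 28.6% of the list beside 10.6% of all genes, with a median log2 fold change of 0.24. Those raised were Ccr6 (0.45), a chemokine receptor, Bhlhe41 (1.00) and Sox5 (1.42), transcription factors that the B1 list also holds, Fcgr2b (0.59), the inhibitory Fc receptor, Itgb1 (0.34), the β1 integrin chain, and Cd38 (0.45), an ectoenzyme. Ahnak, a large scaffold protein, fell by 1.35 and Hopx, a homeodomain-only protein, fell by 0.70. Without ODN replicate 1 the count was 2 higher and 2 lower; without replicate 2 it was 5 and 2, and without replicate 3 9 and 2. TLR7, the other receptor tied to the state, was not called: Tlr7 had means of 61.2 CPM in control and 63.8 CPM under ODN. The costimulatory Cd86 had 24.1 CPM and 27 CPM.

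Under IM156, ODN raised 1 and lowered 2 of these 28 (10.7% of the list beside 2.47% of all genes), Nkg7 (3.47), a granule protein of cytotoxic cells, Ahnak (fell by 1.42) and Emp3 (fell by 0.54), a small membrane protein. Nkg7 had a mean of 0.15 CPM under IM156 and 1.81 CPM under both, at levels of few counts. For ODN+IM156 against ODN, 0 of 28 were called by edgeR, 13 had an unadjusted p below 0.05, 12 of them lower, and DESeq2 called 4, all lower. Over all genes 16.2% had an unadjusted p below 0.05 in that comparison, 1119 of 1919 of them lower. Without ODN replicate 3 edgeR called 7 of the 28, all lower, and without ODN replicate 1 none.

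Of 12 genes known to be low in this state, ODN lowered 3. Fcer2a, the low-affinity IgE receptor CD23 of follicular B cells, went from 341 ± 62.7 to 226 ± 12.2 CPM (log2 fold change -0.59, edgeR adjusted p = 0.00104). Cd55, a complement regulator, fell by 0.49 and Ets1, a transcription factor that holds B cells back from differentiation, fell by 0.33. Leaving out ODN replicate 1 gave 2 lowered and none raised, leaving out replicate 2 gave 3 lowered and 1 raised, and leaving out replicate 3 gave 4 and 1. Under IM156, ODN lowered Cd55 alone (fell by 0.63), 8.33% of the list beside 2.47% of all genes. ODN+IM156 against ODN called 0 of the 12, with 1 at an unadjusted p below 0.05 and 0 called by DESeq2. That 1 is 8.33% of the list, beside 16.2% of all genes at an unadjusted p below 0.05.

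Receptors and regulators that lead to T-bet were given by a list of 36 genes, of which 34 could be tested. Tlr9, the receptor of the ODN, was among the other two, with 19, 24, 12 and 13 counts summed over the control, ODN, IM156 and ODN+IM156 groups. ODN against control raised 3, Irf8 (0.36), a lineage factor of B cells, Batf (0.98), an AP-1 family factor, and Swap70 (0.26), a signalling adaptor that restrains this state, and lowered Ptpn6 (-0.29), the phosphatase SHP-1. That is 11.8% of the list beside 10.6% of all genes. Batf went from 10.5 ± 2.28 to 20.8 ± 5.26 CPM. Without ODN replicate 1 the count was 3 higher and none lower; without replicate 2 it was 2 and 1, and without replicate 3 it was 3 and 5.

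With IM156 in both groups, ODN raised 5 of these 34 and lowered none, 14.7% of the list beside 2.47% of all genes. Among them, Irf8 rose by 0.46, Irf7 by 0.66, Stat3 by 0.35, and Il12rb1, a chain of the interleukin-12 receptor, by 2.10 from a mean of 0.88 CPM. The interaction called 0 of the 34, and DESeq2 called 0. It had 7 at an unadjusted p below 0.05, 20.6% of the 34 beside 12.3% of all genes. ODN+IM156 against ODN called 0 of the 34, and DESeq2 called 0. That comparison had 4 at an unadjusted p below 0.05, 11.8% of the 34 beside 16.2% of all genes. The interleukin-21 receptor Il21r, at 179 CPM in control and 185 CPM under ODN, and the interferon-γ receptor chain Ifngr1, at 106 CPM in both, were not called.

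The genes whose profiles over the 12 libraries were most like those of each called marker were found by the root mean square difference between centred log2 CPM profiles, among genes of mean CPM at least 10. For Itgax they were Nrgn, Ccnd1 and Mpeg1, at distances of 0.22 each on the log2 scale. Nrgn had 37.1, 27.6 and 37.7 CPM in control, 77.8, 106 and 81 CPM under ODN, 44.1, 43.8 and 41.9 CPM under IM156 and 88.9, 68.1 and 76.7 CPM under both. For Fcrl5 they were Hmgn3, Id2 and Tor3a, at 0.16 to 0.17. In Nrgn, Hmgn3 and Id2 the 6 ODN-treated libraries lay above the other 6, as they did in Itgax and Fcrl5. Hmgn3 had 35.3, 30.9 and 37.6 CPM in control and 66.7, 61.5 and 55.2 CPM under ODN.

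The nearest profiles to Tbx21 were those of Sgol1, Aurka and Cenpe, at 0.26 to 0.29. Cenpe, a kinetochore motor, had 37.4, 19.8 and 45.7 CPM in control, 216, 84.3 and 65.1 CPM under ODN, 28, 28.4 and 18.3 CPM under IM156 and 50.8, 70.8 and 70 CPM under both. ODN replicate 1 was the highest library, as for Tbx21. For Cxcr3 the nearest were Kif22, Tpx2 and 1190002F15Rik, at 0.62 to 0.65, and for Itgam Hells, BC147527 and Hmmr, at 0.50 to 0.52. These distances are large beside the spread of the members' own profiles, 1.30 for Cxcr3 and 0.93 for Itgam, and give a looser likeness than for Itgax (0.62) or Fcrl5 (0.41). Likeness of profile over 12 libraries that share groups is a description.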

How the data were processed

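RNA of splenic B cells was sequenced with the Lexogen QuantSeq 3' kit, per the labels' protocols, in 12 libraries of 4 groups. The deposited table gives raw read counts per gene symbol made by the authors; per the submitters' processing notes, Bowtie2, bedtools and edgeR were used with GRCm38 (mm10). The annotation, versions and strand rule are not given in the sources used here. A 3' library counts transcript ends and carries no length correction.

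These counts entered edgeR 4.0.16 (R 4.3.3) with filterByExpr (11857 of 23282 rows), TMM factors, a quasi-likelihood fit with 1 mean per group over 12 libraries (8 residual degrees of freedom), two-sided tests, and Benjamini-Hochberg adjustment over all genes tested. Each gene has 1 spread over all groups, so that a variable ODN group widens the others' errors. CPM is relative to the TMM-scaled library total. The median count of a tested gene was 258; floors use 3 counts, and intervals from the fit are at 95%. Reads carry no molecular identifiers, so that floors cover counting error only. The chi-square per degree of freedom between replicates of a group was 5.35 to 72.6, where counting error alone gives 1.

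The members and lists were chosen with earlier results of these data known. The text names all 9 members in each comparison, genes called in the other lists (at most 6 per direction by adjusted p), defining markers of other cell types, and the 3 nearest profiles of each called member; Tlr7, Tlr9, Cd86, Itgb2, Il21r and Ifngr1 were added for their role. Alternatives were library totals alone, DESeq2 1.42.0, no filter, a robust fit, Rn45s and haemoglobin rows left out, a replicate block, only the groups compared, and each library left out; the list counts under DESeq2 and without ODN libraries, and the dendritic sum without Ffar2, were added after seeing the data. Motifs were searched in RefSeq windows of 250 bases. Results for a few genes of the lists are not reported here.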

Additional observations from a re-analysis of the deposited data

How the results depend on the processing

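None of the 13 called values of single members changed direction under any alternative run; over all members and comparisons, 31 of 1161 did, all of them uncalled values. With no filter on low counts, 1 member was called for ODN+IM156 against ODN and 1 for the interaction (Cxcr3 in both), and 4 for ODN+IM156 against IM156, as with only the groups compared (4). For ODN+IM156 against control, library totals alone left 1. Leaving out 1 library gave 0 to 1 calls for ODN+IM156 against ODN, 1 to 2 for ODN+IM156 against control and 0 to 4 for ODN+IM156 against IM156. Replicate numbers showed no pairing over all genes tested: the correlations of same-numbered deviations from group means lay between -0.10 and 0.079. Those of differently numbered libraries lay between -0.090 and 0.12. A pairing that affects few genes could be missed by these correlations. With the number as a replicate block, 4 members were called for ODN against control, 1 for ODN+IM156 against control and 3 for ODN+IM156 against IM156, and Nt5e gave 0.037 in the last of these. With library totals alone Zeb2 gave -0.024 for ODN against control. Uncalled values turned sign when 1 library was left out, within these log2 ranges. For ODN against control, Zeb2 ranged from -0.062 to 0.20, Fas from -0.30 to 0.051 and Nt5e from -1.41 to 0.44. For IM156 against control, Fcrl5 ranged from -0.18 to 0.021, Cxcr3 from -0.0083 to 1.60 and Nt5e from -1.65 to 0.33. For ODN+IM156 against ODN, Itgam ranged from -0.44 to 0.43, Fcrl5 from -0.36 to 0.0079, Zeb2 from -0.041 to 0.23 and Nt5e from -0.89 to 0.31. For ODN+IM156 against control, Zbtb32 ranged from -0.23 to 0.53 and Nt5e from -1.79 to 0.23, and for ODN+IM156 against IM156 Nt5e from -0.79 to 0.55. For the interaction, Itgax ranged from -0.22 to 0.041, Tbx21 from -0.69 to 0.16, Fcrl5 from -0.26 to 0.10 and Nt5e from -0.54 to 1.44, and for the averaged ODN effect Nt5e from -0.84 to 0.17. The causes were not tested. DESeq2 gave no adjusted p for 18 member values. Low counts limit Nt5e, Itgam, Zbtb32, Cxcr3 (6 and 9 counts in 2 control libraries) and, in control replicate 2, Tbx21 (21 counts).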
